A study of Rattus norvegicus with 8 samples.

Results

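A group of 6 genes was examined here by gene symbol: Sgk1, Nfkbia, Dusp1, Gadd45b, Fos and Nr4a2. They are genes that steroid hormones or neuronal activity induce quickly and whose transcripts decay quickly. Each was represented by 1 probe set with a single symbol, so the group held 6 of the 379 probe sets of the deposited expression table, or 6 of the 283 with 1 symbol. The habenula, a small pair of nuclei above the thalamus, was taken from male Sprague-Dawley rats. The 4 rats of the chronic stress group, numbered 7, 8, 10 and 12, spent 2 hours of each of 14 days restrained in envelopes of breathable plastic. The 4 rats of the non-stress group, numbered 1, 3, 4 and 5, stayed in their home cages. The labels name no drug or transgene in either group. The sources used here give neither the age of the rats nor the interval between the last restraint and dissection. The values are log2 intensities from 1 array per rat.

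The 379 probe sets had been chosen on these same arrays. In the authors' deposited table every p-value was at most 0.0499 and every log2 difference was at least 0.263 in size, a fold of 1.2. The group difference therefore chose the genes, and it is described below without a test. At the edge of the choice lay Gadd45b, whose difference of 0.27 ranked 354 of 379 in size, and Nr4a2, whose p-value of 0.0466 in the authors' deposited table ranked 369 of 379. Fos, also at 0.27, ranked 342 in size, and Dusp1 ranked 328 by that p-value. Probe sets just outside these limits were not analysed here. Array medians over the table lay between 8.60 and 8.77.

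Immediate early genes are transcribed within minutes of a stimulus from factors already present in the cell, and their messenger RNAs are short-lived. In the brain they serve as markers of recent neuronal firing. The glucocorticoid receptor, the nuclear receptor for the stress hormone corticosterone in the rat, binds DNA and induces a partly overlapping set, of which Sgk1, Nfkbia and Dusp1 are well-known members.

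RefSeq promoter windows (rat build GRCr8) were found for 5 of the 6 genes, 3 of them for Sgk1, which has several starts, and 1 each for Nfkbia, Dusp1, Gadd45b and Nr4a2. The 250 bases before the start are shown for 3 genes: Nfkbia and Dusp1, which were higher in the stressed rats, and Nr4a2, which was lower. Capitals mark a loose NF-kappa-B core (GGG, any 5 bases, CC) in Nfkbia and the cAMP response element TGACGTCA or its shorter form TGACG in Dusp1 and Nr4a2, on either strand. The Nfkbia window is chr6:78597073-78597322 on the minus strand, the Dusp1 window chr10:17184603-17184852 on the plus strand and the Nr4a2 window chr3:62104888-62105137 on the minus strand.
Nfkbia: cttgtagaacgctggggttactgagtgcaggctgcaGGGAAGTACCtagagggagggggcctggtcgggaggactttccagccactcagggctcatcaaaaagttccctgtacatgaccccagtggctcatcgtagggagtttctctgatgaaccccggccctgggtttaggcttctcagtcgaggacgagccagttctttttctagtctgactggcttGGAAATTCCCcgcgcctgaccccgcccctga
Dusp1: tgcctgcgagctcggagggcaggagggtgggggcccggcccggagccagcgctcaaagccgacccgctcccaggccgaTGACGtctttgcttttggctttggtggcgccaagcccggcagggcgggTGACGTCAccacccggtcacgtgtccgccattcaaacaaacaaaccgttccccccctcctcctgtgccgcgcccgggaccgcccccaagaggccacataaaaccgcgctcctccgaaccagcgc
Nr4a2: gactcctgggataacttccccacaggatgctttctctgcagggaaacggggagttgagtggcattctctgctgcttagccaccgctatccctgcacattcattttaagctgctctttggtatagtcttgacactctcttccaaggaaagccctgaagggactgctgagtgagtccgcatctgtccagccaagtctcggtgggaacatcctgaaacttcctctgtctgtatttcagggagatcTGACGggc

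The Dusp1 window held a full cAMP response element from base -124 to -117, counted from the start, and a further short element from -172 to -168. The full element occurred in 1.59% of the 33469 rat promoter windows of this length, and the short element, which the full one contains, in 18.2%. Nr4a2 held a short element from -8 to -4. Nfkbia, whose transcription NF-kappa-B is known to induce, held the NF-kappa-B core from -214 to -205 and, on the other strand, from -31 to -22. That loose pattern occurred in 42.3% of all windows, and also in the windows of Dusp1, Gadd45b and Nr4a2 and in 1 of the 3 windows of Sgk1. None of the 7 windows of these genes held the glucocorticoid receptor site AGAACA, which occurred in 17.5% of all windows, the full glucocorticoid response element that contains it (0.0120%), the AP-1 element TGANTCA (6.34%) or the serum response element, all searched on both strands. These matches are descriptions of the letters in the windows.

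Of the 6 genes, 5 were higher and 1 was lower in the stressed rats. The groups did not overlap for Sgk1, Nfkbia and Gadd45b, and overlapped for Dusp1, Fos and Nr4a2. Over the whole table the groups did not overlap for 83.4% of probe sets, 36.9% higher and 46.4% lower. All 6 genes passed limma's threshold of an adjusted p of 0.05, as did 100% of the table (44.6% higher and 55.4% lower), and nothing is read from either count. Each difference is stress minus non-stress on the log2 scale, ± the standard error from limma. That error draws each gene's variance toward the rest of the table, whose probe sets had been chosen for small p-values on this contrast. It therefore does not measure the spread of a single gene between rats. For the most variable genes, such as Sgk1, it may be too small. The median SD over the table was 0.09 in stressed and 0.14 in non-stress rats, against 0.41 and 0.23 for Sgk1. Group levels are given as mean ± SD (n = 4 rats).

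Sgk1 encodes a serum and glucocorticoid regulated kinase that acts on ion channels and transporters. Its log2 level was 10.63, 10.98, 10.77 and 11.17 in non-stress rats 1, 3, 4 and 5. In stressed rats 7, 8, 10 and 12 it was 12.13, 11.37, 12.20 and 12.20. All stressed rats were above all non-stress rats, but stressed rat 8 was only 0.20 above the highest non-stress rat, while the other 3 lay between 12.13 and 12.20. The mean was 11.98 ± 0.41 against 10.89 ± 0.23, a difference of 1.09 ± 0.16 (2.13-fold).

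Nfkbia encodes the inhibitor that holds NF-kappa-B in the cytoplasm. Its level was 9.35, 9.22, 9.19 and 9.33 in non-stress rats 1, 3, 4 and 5 and 10.10, 9.64, 10.10 and 10.11 in stressed rats 7, 8, 10 and 12. The groups were apart by 0.30, and again stressed rat 8 lay between the non-stress rats and the other stressed rats. The mean was 9.99 ± 0.23 against 9.27 ± 0.08, a difference of 0.72 ± 0.10 (1.65-fold). Sgk1 and Nfkbia were the 2 of the 6 genes whose difference exceeded 1.5-fold, a size reached by 8.18% of the table.

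Dusp1 encodes a phosphatase that inactivates MAP kinases. Its level was 10.88, 10.84, 11.16 and 11.12 in non-stress rats 1, 3, 4 and 5 and 11.46, 11.06, 11.61 and 11.41 in stressed rats 7, 8, 10 and 12. Stressed rat 8 lay below non-stress rats 4 and 5, so the groups overlapped. The other 3 stressed rats were above all non-stress rats. The mean was 11.39 ± 0.23 against 11.00 ± 0.16, a difference of 0.39 ± 0.11 (1.31-fold).

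Fos encodes a subunit of the transcription factor AP-1 and is the most widely used marker of recent neuronal activity. Its level was 8.55, 8.54, 8.65 and 8.68 in non-stress rats 1, 3, 4 and 5 and 8.999, 8.66, 8.96 and 8.88 in stressed rats 7, 8, 10 and 12. Stressed rat 8 lay within the range of the non-stress rats, below rat 5 and above the other 3. The mean was 8.88 ± 0.15 against 8.61 ± 0.07, a difference of 0.27 ± 0.09 (1.21-fold).

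Gadd45b encodes a small stress-inducible protein that has been tied to activity-dependent DNA demethylation in neurons. Its level was 8.63, 8.77, 8.67 and 8.81 in non-stress rats 1, 3, 4 and 5 and 8.97, 8.97, 8.96 and 9.05 in stressed rats 7, 8, 10 and 12. The groups were apart by 0.15. Here stressed rat 8 was not the lowest, and it lay beside rats 7 and 10. The mean was 8.99 ± 0.04 against 8.72 ± 0.08, a difference of 0.27 ± 0.08 (1.204-fold).

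Nr4a2 encodes the orphan nuclear receptor Nurr1, an immediate early gene that neurons of the medial habenula also express without stimulation. Its level was 11.78, 11.95, 11.44 and 11.58 in non-stress rats 1, 3, 4 and 5 and 11.34, 11.18, 11.36 and 11.51 in stressed rats 7, 8, 10 and 12. Stressed rat 12 was above non-stress rat 4, and the other 3 stressed rats were below all non-stress rats. The mean was 11.35 ± 0.14 against 11.69 ± 0.22, a difference of -0.34 ± 0.11 (1.27-fold lower). After quantile normalization over the table, which shifts the median difference of all probe sets by 0.10, the difference of Nr4a2 was -0.19.

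**Figure D1:**
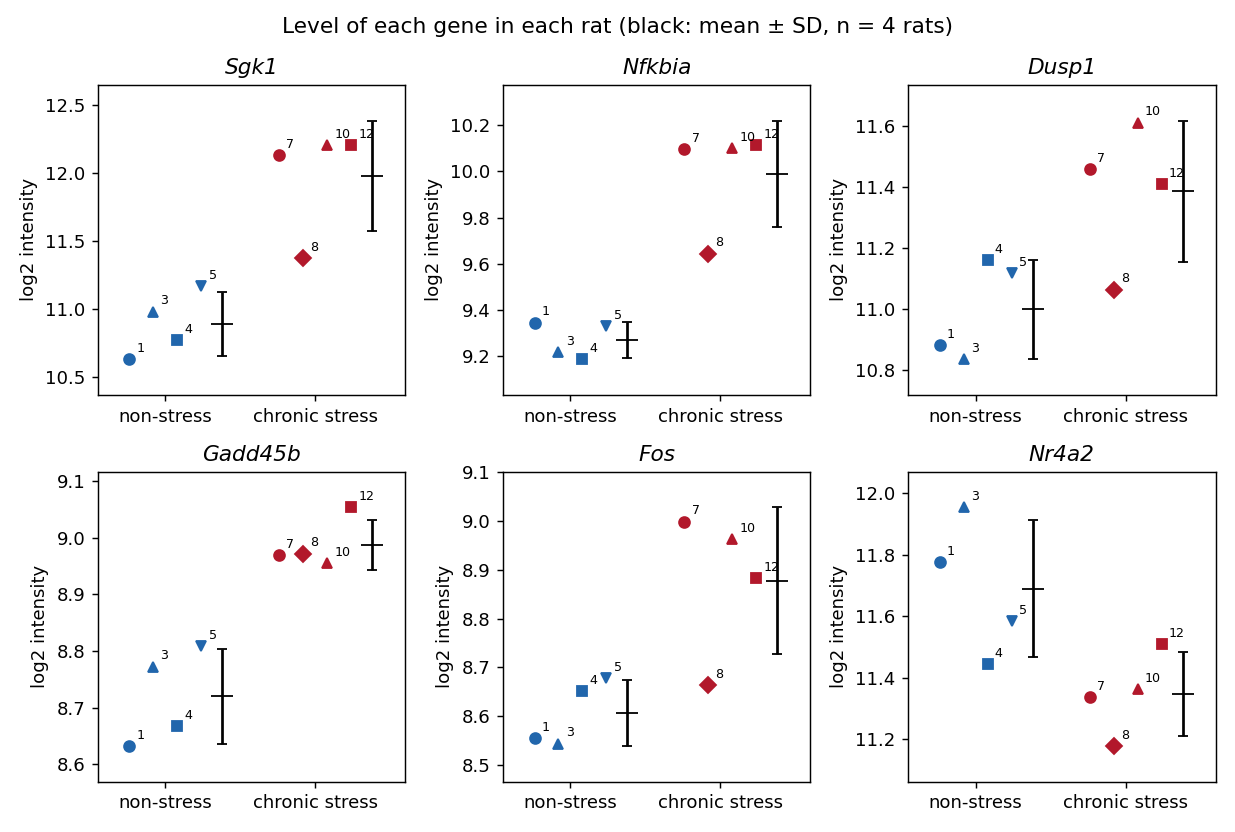
Log2 intensity of the 6 genes in each rat, 1 panel per gene, with rat numbers beside the points and the mean ± SD of 4 rats in black at the right of each group. Stressed rat 8 lies below the other stressed rats for Sgk1 (11.37), Nfkbia (9.64), Dusp1 (11.06), Fos (8.66) and Nr4a2 (11.18), and beside them for Gadd45b (8.97).

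The stressed rats were thus uneven. Of the 5 higher genes, 4 were lowest in stressed rat 8 within the stressed group. Over the 169 higher probe sets of the table, rat 8 was the lowest of the 4 stressed rats in 75 (44.4%), rat 7 in 47 (27.8%), rat 12 in 25 (14.8%) and rat 10 in 22 (13.0%). Measured from the mean of the non-stress rats, Dusp1 stood at 0.06 in rat 8 against 0.41 to 0.61 in the other stressed rats. Fos stood at 0.06 against 0.28 to 0.39, and Sgk1 at 0.48 against 1.24 to 1.32. Nr4a2, the lower gene, stood farthest from the non-stress mean in rat 8, at -0.51 against -0.35 to -0.18 in the others. Without stressed rat 8 the difference of Sgk1 was 1.29, that of Nfkbia 0.83, that of Dusp1 0.50, that of Fos 0.34, that of Gadd45b 0.27 and that of Nr4a2 -0.29. No batch or time of dissection was known for any rat.

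Genes known to respond to glucocorticoids were looked at in the same way. Of the 21 genes of the list, which includes Sgk1, Nfkbia and Dusp1, 16 were in the table, 15 higher and 1 lower. Outside these 3 genes, 13 of 18 were in the table, 12 higher and 1 lower, with a median difference of 0.60. Over the whole table the median was 0.32 for the higher probe sets and -0.34 for the lower. The groups did not overlap for any of these 13, nor for 83.4% of the whole table. The list was written with earlier results of these data known, and the table had been chosen on these samples, so the count is no independent evidence. Stressed rat 8 was the lowest stressed rat for 10 of the 12 higher genes, against 44.4% of all higher probe sets.

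Among them, Pdk4, a kinase that restrains pyruvate oxidation, stood 0.41 above the non-stress mean in rat 8 and 1.23 to 1.65 above it in the other stressed rats. Errfi1, a feedback inhibitor of the EGF receptor, stood at 0.15 against 0.55 to 0.77. The gene for the mTOR inhibitor Ddit4 stood at 0.29 against 0.68 to 0.90. Rat 8 did not stand apart for some other genes of the list. The repressor Zbtb16 stood at 1.89 in rat 8, within the 1.70 to 2.15 of the others, and the transcription factor Klf9 at 0.42, within 0.35 to 0.52. The receptor co-chaperone Fkbp5 was at 0.41 in rat 8, next to 0.43 in rat 10, with rats 12 and 7 at 0.73 and 0.85. The cell cycle inhibitor Cdkn1a was at 0.52 against 0.54 to 0.65. These genes were singled out after their values were seen, and no test of the difference between them was made.

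The remaining higher genes of this list were Sult1a1, a sulfotransferase (difference 0.77), the repressor Bcl6 (0.68), the clock gene Per1 (0.61), Tsc22d3, which encodes the leucine zipper protein GILZ (0.46), and the transcription factor Klf15 (0.33). The exception was Map3k6, a kinase, at -0.38. Rat 8 was the lowest stressed rat for Sult1a1, Bcl6, Per1, Tsc22d3 and Klf15, and lay within the others for Map3k6.

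**Figure D2:**
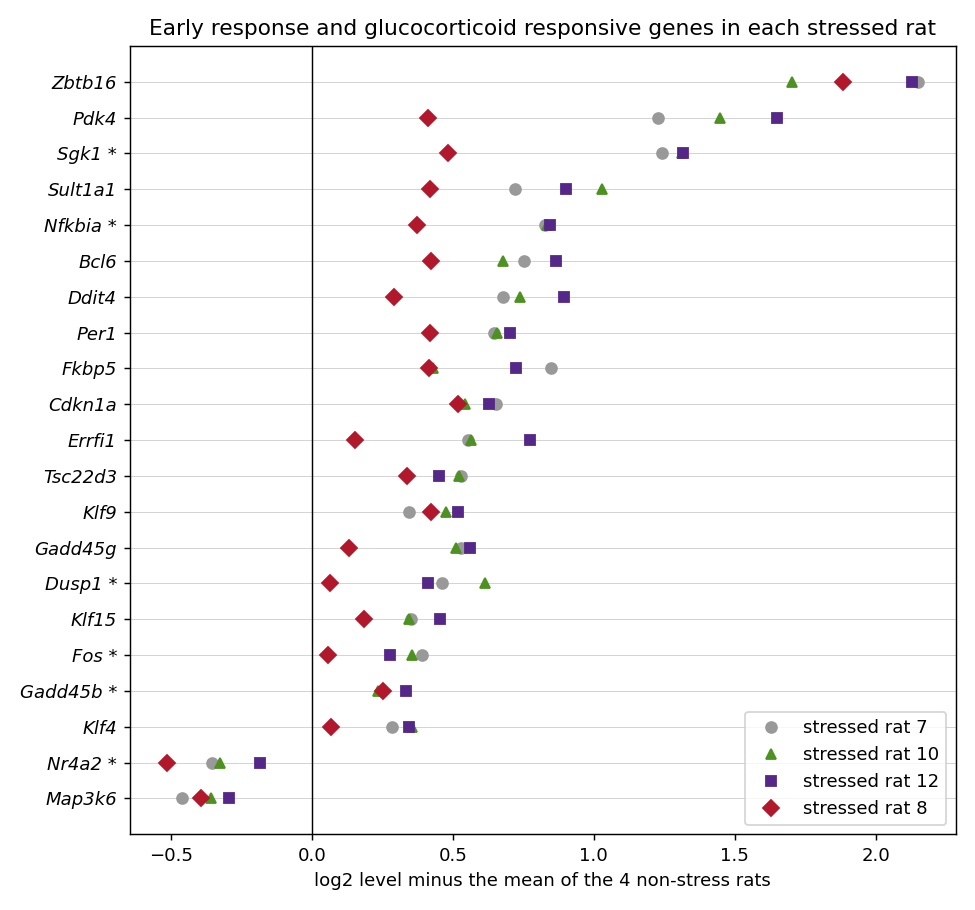
Log2 level of the early response and glucocorticoid responsive genes in each of the 4 stressed rats, as the difference from the mean of the 4 non-stress rats (horizontal axis), with the 6 genes marked by an asterisk. Stressed rat 8 stands at 0.48 for Sgk1 where the other 3 stand at 1.24 to 1.32, and at 1.89 for Zbtb16 where the others stand at 1.70 to 2.15.

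Of the 25 listed immediate early genes 5 were in the table. Besides Fos, Dusp1, Gadd45b and Nr4a2 these included Klf4, a zinc finger transcription factor, at a difference of 0.26. That is close to the smallest size in the table. Klf4 stood at 0.07 in rat 8 and at 0.28 to 0.36 in the other stressed rats, and its groups overlapped. The median of the 5 was 0.27. Fosb, Egr1, Arc, Npas4, Junb and Nr4a1, standard markers of neuronal activity, were on the list and not among the chosen probe sets, which does not show that they were unchanged.

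Close relatives of the 6 genes were few in the table. Of 3 Gadd45 genes, Gadd45b and Gadd45g were present and both were higher, Gadd45g by 0.43 (7.80 ± 0.20 against 7.36 ± 0.10). Unlike Gadd45b, Gadd45g was low in stressed rat 8, at 0.13 above the non-stress mean against 0.51 to 0.56. Dusp1 was the 1 gene present of 10 MAP kinase phosphatases, Fos of 10 AP-1 subunits, Nr4a2 of 3 NR4A receptors, Nfkbia of 14 NF-kappa-B pathway genes and targets, and Sgk1 of 6 SGK family genes and targets. The 3 genes listed for corticosteroid receptors and 11-beta-hydroxysteroid dehydrogenase had 0 in the table.

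The spread of the 6 genes between rats differed between the groups. The SD of Sgk1 among stressed rats ranked 2 of the 379 probe sets, that of Dusp1 20, that of Nfkbia 21, that of Fos 66, that of Nr4a2 84 and that of Gadd45b 328. Among non-stress rats the ranks were 25 for Sgk1, 137 for Dusp1, 314 for Nfkbia, 330 for Fos, 37 for Nr4a2 and 300 for Gadd45b. The SD was larger in the stressed than in the non-stress group for 4 of the 6 genes, by 2.91 times for Nfkbia, 2.22 times for Fos, 1.72 times for Sgk1 and 1.42 times for Dusp1. It was larger in the stressed group for 32.2% of the table. Much of the spread of those 4 genes among stressed rats lay with 1 animal. Without stressed rat 8 the SD of the remaining 3 stressed rats was 0.04 for Sgk1, 0.01 for Nfkbia, 0.11 for Dusp1 and 0.06 for Fos. Leaving out the most extreme of 4 rats lowers the SD of any gene. For Gadd45b it fell from 0.045 to 0.009 without stressed rat 12. Probe sets with a large spread and a small difference could not enter the table, so these ranks describe the table alone.

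**Figure D3:**
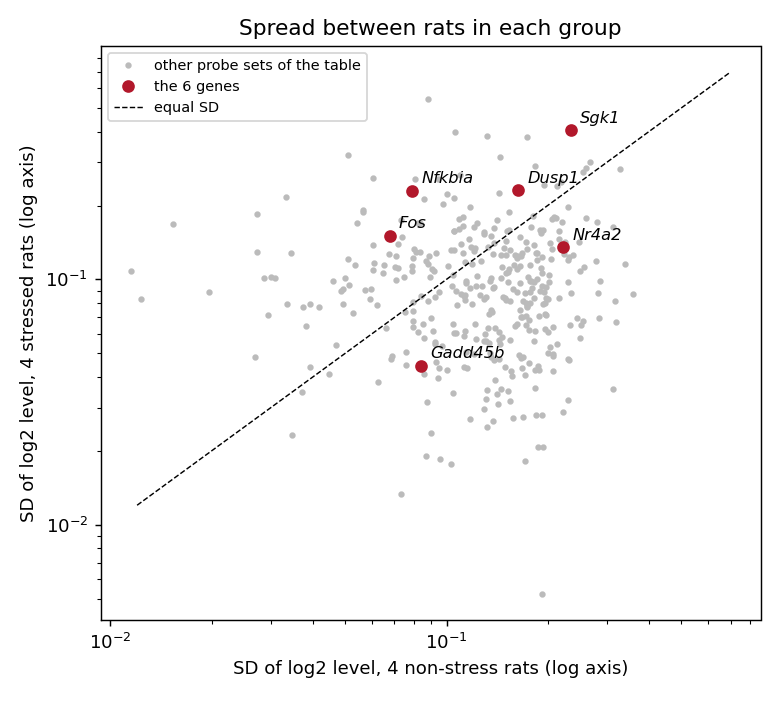
SD of the log2 level over 4 stressed rats against the SD over 4 non-stress rats, both on log axes, for all 379 probe sets, with the 6 genes named and a dashed line of equal SD. Sgk1, Nfkbia, Dusp1 and Fos lie above the line, and Gadd45b and Nr4a2 below it.

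Whether the genes moved together from rat to rat was asked on residuals, the level of each rat minus the mean of its group, over 8 rats. With 15 pairs of genes, none passed an adjusted p of 0.05, by Pearson's r or by Spearman's rho (exact permutation of rats within groups, 2-sided, Benjamini-Hochberg over 15 pairs). One pair had an unadjusted exact p under 0.05, and the smallest p the 576 orders allow is 0.00174. With rats left out fewer orders remain and the smallest possible p is larger. Such p-values are therefore not set against those over 8 rats. The r was positive in 13 of the 15 pairs.

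Dusp1 and Fos were the pair with the highest r, at 0.923 (exact permutation p = 0.0191, adjusted 0.286) and rho 0.833 (exact permutation p = 0.0347, adjusted 0.417). Both were higher in non-stress rats 4 and 5 than in rats 1 and 3, and both were lowest among stressed rats in rat 8. Leaving out each rat in turn gave r from 0.815 to 0.976. The rats farthest from the median of Dusp1 were stressed rat 8 and non-stress rat 3, and r without them was 0.741 (exact permutation p = 0.222).

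Sgk1 and Nfkbia had r 0.822 (exact permutation p = 0.123, adjusted 0.370) and rho 0.643 (exact permutation p = 0.101, adjusted 0.417). Without stressed rat 8 r was 0.0454, and without non-stress rat 1 it was 0.985. With stressed rat 8 and non-stress rat 1 left out, the rats farthest from the median of Sgk1, r was 0.927 (exact permutation p = 0.0833), so the value turned on both rats. Sgk1 and Fos had r 0.824 (exact permutation p = 0.0660, adjusted 0.370) and rho 0.619 (exact permutation p = 0.135, adjusted 0.417). Their r was 0.310 without stressed rat 8, and 0.0154 (exact permutation p = 1) without that rat and non-stress rat 1.

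Among the 10 pairs of the 5 higher genes, r exceeded 0.7 in 5, against 9.33% of all pairs of higher probe sets in the table. Without stressed rat 8 it exceeded 0.7 in 2 of the 10, against 10.4% of all such pairs. Those 2 were Dusp1 with Fos (0.815) and Sgk1 with Gadd45b (0.893). Gadd45b had r of 0.0216 with Dusp1, 0.0853 with Fos and 0.119 with Nfkbia over all 8 rats. Genes share arrays here and are not independent replicates.

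**Figure D4:**
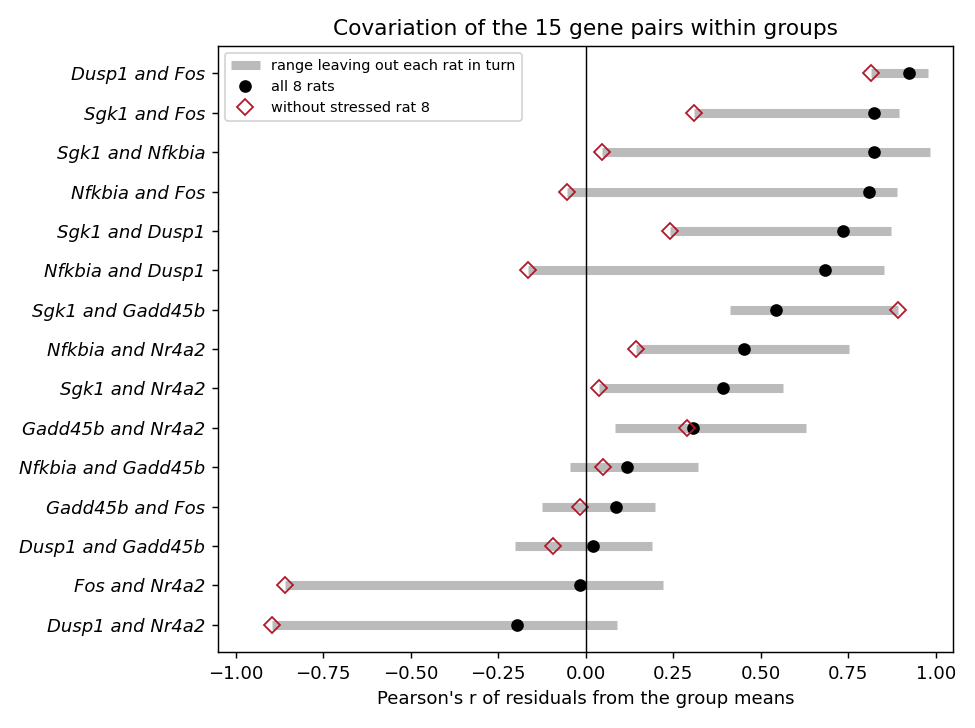
Pearson's r between residuals from the group means for each of the 15 gene pairs (horizontal axis), over 8 rats (black), as the range over leaving out each rat (grey) and without stressed rat 8 (open diamonds). Dusp1 and Fos stay between 0.815 and 0.976, while Sgk1 and Nfkbia fall from 0.822 to 0.0454 without rat 8.

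The probe sets whose residuals were most like those of each gene were named by a common rule, the 3 highest r over 8 rats outside the 6 genes, as a likeness with no test. For Fos these were Apold1, an early response gene of blood vessel endothelium (r 0.978), Fmo2, a flavin monooxygenase (0.939), and Mmp3, a matrix metalloproteinase (0.853). For Dusp1 they were Mmp3 (0.960), Tmem252 (0.932) and Ccn2, a secreted matrix protein gene (0.909). Apold1 differed by 0.87 between the groups (7.81 ± 0.40 against 6.95 ± 0.11).

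For Sgk1 the most alike were the olfactory receptor gene Or4k49 (0.953), Acer2, a ceramidase (0.937), and Adipor2, an adiponectin receptor (0.930). Nfkbia was most like Gadd45g (0.930), the thiamine transporter Slc19a3 (0.878) and Pdk4 (0.866). For Gadd45b the olfactory receptor genes Or5d40 (0.843) and Or10d5jl (0.814) and the oxytocin gene Oxt (0.820) came first, and for Nr4a2 these were Lrrn4cl (0.953), the homeobox gene Pbx3 (0.940) and Chrdl1, a BMP antagonist (0.926). Or4k49, Or5d40 and Or10d5jl were dim, with group means from 4.92 to 6.33 where array medians were 8.60 to 8.77. Or10d5jl differed by -0.37 between the groups, opposite in direction to Gadd45b. Of the 378 other probe sets, 86 had r over 0.7 with Nr4a2, 79 of them lower in the stressed rats. The corresponding number was 37 for Sgk1, 27 for Nfkbia, 26 for Fos, 22 for Dusp1 and 20 for Gadd45b, most of them higher in the stressed rats.

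Nr4a2 was also set beside markers of medial habenula neurons. Of 12 listed markers, 7 were in the table, all lower in the stressed rats: Slc18a3, Slc5a7, Chrna3, Chrnb3, Chrnb4, Tac1 and Lrrc55, with a median difference of -0.52. Their mean log2 level was 10.59 to 11.10 in the non-stress rats and 10.25 to 10.35 in the stressed rats. In such bulk tissue fewer cells of a type and less RNA per cell cannot be told apart. Within groups the residual of Nr4a2 had r 0.878 with the mean residual of the 7 markers (exact permutation p = 0.0156, adjusted 0.0938 over the 6 genes) and rho 0.881 (exact permutation p = 0.0312, adjusted 0.188). Leaving out each rat gave r from 0.801 to 0.943. Non-stress rats 3 and 4 lay farthest from the median of the markers, and r without them was 0.680 (exact permutation p = 0.188, from fewer orders). The relation did not pass the correction. High correlations were also common among lower probe sets in general, with r over 0.7 in 22.6% of their pairs against 9.59% of all pairs in the table. Of the 210 lower probe sets, non-stress rat 3 was the highest non-stress rat in 62.9% and non-stress rat 4 the lowest in 51.4%, as both were for Nr4a2.

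For the other 5 genes the r with the markers lay between -0.390 for Dusp1 and 0.206 for Gadd45b, with adjusted exact permutation p-values of 0.743 to 0.785. The part of the dissected tissue in the difference of Nr4a2 was not tested. Of the other marker lists, 3 of 7 hippocampal and dentate and 1 of 5 lateral habenula genes were in the table, all lower. The table also held 2 of 9 endothelial and mural and 1 of 4 meningeal genes, all lower. Of 6 microglial genes it held 2, 1 in each direction. Since 55.4% of the whole table was lower, nothing is read from these counts. The lists for thalamus, choroid plexus, ependyma, pineal gland, oligodendrocytes and their precursors, astrocytes and blood had 0 genes in it. Since only chosen probe sets are listed, the purity of the dissection could not be checked from these values.

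**Figure D5:**
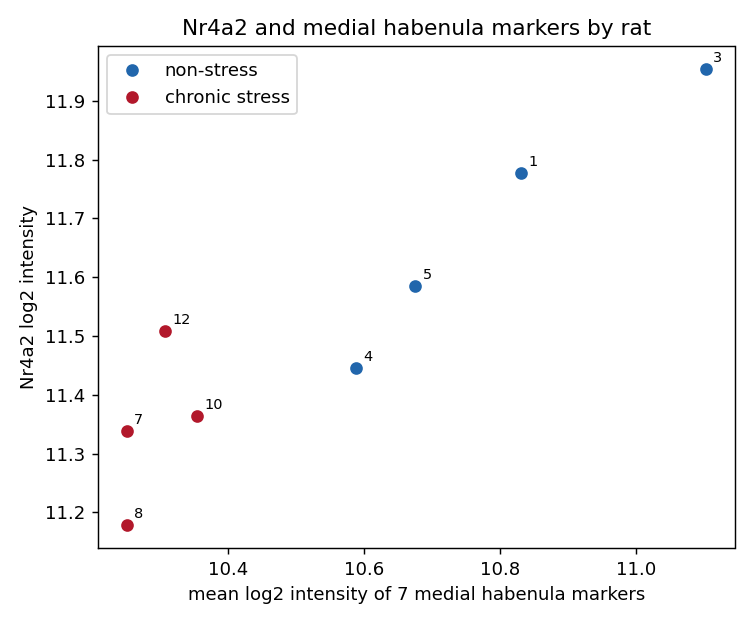
Log2 intensity of Nr4a2 (vertical axis) against the mean log2 intensity of 7 medial habenula markers (horizontal axis) in each of the 8 rats, with rat numbers beside the points. Among non-stress rats both run from rat 4 (10.59 for the markers, 11.44 for Nr4a2) to rat 3 (11.10 and 11.95), and the stressed rats lie together at 10.25 to 10.35 for the markers.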

How the data were processed

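Total RNA was amplified, biotin-labelled and hybridized to Affymetrix whole-transcript arrays, per the labels' protocols. The authors deposited log2 intensities per probe set. The sources used here do not give their background correction, normalization or probe set filter. The log2 difference column and the unadjusted p-value column are the authors' deposited comparison. A second table of the series held the same values (largest gap 0). Symbols came from the platform annotation and 283 of 283 single symbols were matched to RefSeq by gene ID.

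The genes and lists were chosen with earlier results of these data known. Groups were compared by linear model with moderated variance and no covariates (limma 3.58.1, R 4.3.3) on all 379 probe sets, adjusted over all of them. The model was also tested on simulated data. Those were not chosen on the contrast as this table was, so that test does not cover the choice. Residual correlations used exact permutation within groups in Python 3.11.15 with NumPy 2.4.6. The correlation with medial habenula markers and the position of single rats were added with the values known. Named genes are the 6, the 3 single-symbol probe sets most alike to each (outside the 6) and the listed pathway genes in the table. Zbtb16, Klf9, Fkbp5, Cdkn1a, Pdk4, Errfi1 and Ddit4 were singled out by rat afterwards. Each array is a separate rat, and the number of arrays limits precision. Arrays were also median-centred or quantile normalized, dim probe sets left out, other variance models fitted and each rat left out.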

Additional observations from a re-analysis of the deposited data

Results flagged for a closer look

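For 36 named genes, each group was searched for 1 rat set apart from its 3 group mates, which gave 72 group values. Such a rat was found in 4 group values, from 2 rats, where chance at about 1 in 20 gives 3.6. The count is near chance, and the genes are not independent, since Gadd45g moved much like Nfkbia (r 0.930). Stressed rat 8 accounted for 3 of the 4 group values. Sgk1 was 11.37 in this rat and 12.13 to 12.20 in the remaining stressed animals. Nfkbia was 9.64 there, with 10.10 to 10.11 elsewhere in the group. Gadd45g, a relative of Gadd45b, was 7.49 there, with 7.87 to 7.92 elsewhere in the group. The last was the cell cycle inhibitor Cdkn1a in non-stress rat 3, at 8.79, where non-stress rats 1, 4 and 5 had 8.95 to 8.97. Dusp1 and Fos in stressed rat 8 did not meet this criterion.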

How the results depend on the processing

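The differences of all 6 genes kept their direction under array median centring, quantile normalization, group medians, the second table and leaving out each rat. Leaving out 1 rat gave 1.004 to 1.29 for Sgk1, 0.68 to 0.83 for Nfkbia, 0.31 to 0.50 for Dusp1, 0.24 to 0.30 for Gadd45b, 0.23 to 0.34 for Fos and -0.43 to -0.26 for Nr4a2. Quantile normalization, run on the chosen probe sets alone, gave -0.19 for Nr4a2 and left 336 of 379 probe sets past limma's threshold. Leaving out 1 rat left 378 or 379, and 284 of the 284 brighter probe sets passed. The table was chosen on this same contrast, so passing was largely set in advance and nothing is read from these counts. No gene pair passed the threshold under array median centring, quantile normalization or residuals from group medians. None passed with a rat left out either, but fewer orders then remain and 1 pair alone could not pass. Sgk1 with Nfkbia without non-stress rat 1 had the smallest p such orders allow (exact permutation p = 0.00694, adjusted 0.104). Nothing is read from the result with a rat left out. Pairs whose r changed sign when a rat was left out were Nfkbia with Dusp1 (-0.164 to 0.852), Nfkbia with Fos (-0.0521 to 0.890), Nfkbia with Gadd45b (-0.0461 to 0.319), Dusp1 with Gadd45b (-0.203 to 0.190), Dusp1 with Nr4a2 (-0.894 to 0.0908), Gadd45b with Fos (-0.125 to 0.198) and Fos with Nr4a2 (-0.859 to 0.220). For Gadd45b with Nr4a2, r was 0.305 as deposited, -0.226 after median centring and -0.235 after quantile normalization. The cause was not tested. No paired analysis was possible because the groups share no rat number. The arrays give no depth, and signal over background could not be assessed.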
